A study of Mus musculus with 8 samples.

Results

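The IL-1 family cytokines were followed in RNA-seq of mouse dorsal epidermis at postnatal day 4. The members were 9 genes chosen by name: the agonists *Il1a*, *Il1b*, *Il18*, *Il33*, *Il36a*, *Il36b* and *Il36g*, and the receptor antagonists *Il1rn* and *Il36rn*. They were 9 of the 55416 genes in the table, and all 9 were among the 13147 genes with enough counts to be tested. *Il1f10* (IL-38), a relative that lies among them, is given beside them and was not counted as a member.

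Libraries of 2 genotypes were compared, with 4 in each. The RoraEKO mice carry a *Rora* gene flanked by loxP sites (*Rora* flox/flox) and the *K14-Cre* transgene, in which the keratin 14 promoter drives Cre in basal keratinocytes and in the cells that arise from them, and the labels call the other 4 samples WT. Whether the WT animals carried floxed alleles or Cre is not given in the sources used here. *Rora* encodes the nuclear receptor RORα. The epidermis of the back was peeled from the dermis after brief heating, and total RNA of each sample gave 1 library. The control libraries are named A1, B1, C1 and C6 and the libraries labelled RoraEKO are named A3, B4, C2 and C3, as in the sample titles, and values below follow that order. The labels do not say whether the samples of a genotype came from separate litters, so the p-values measure the spread between these samples.

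Cytokines of the IL-1 family are early alarm signals of the skin, and keratinocytes make several of them. IL-1α and IL-1β act through the receptor IL1R1 with the shared chain IL1RAP, the IL-36 cytokines act through IL1RL2 with the same chain, and IL-33 and IL-18 have receptors of their own. The antagonists IL-1RN and IL-36RN occupy IL1R1 and IL1RL2 without starting a signal, and most of the agonists need processing or release from the cell before they act, which mRNA does not measure.

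Library totals ran from 17286903 to 26705533 counts, and 3 counts, taken here as the floor of detection, corresponded to 0.113 to 0.196 CPM (the share of a library's counts in counts-per-million units, scaled by the TMM factors of edgeR). The gene-level count of *Rora* was 212 ± 66.6 CPM (SD, n = 4) in control libraries and 196 ± 34.6 CPM (SD, n = 4) in those labelled RoraEKO (edgeR log2 fold change -0.11, BH-adjusted p = 0.877), so that it did not separate the genotypes. These counts do not resolve the deleted part of the gene, and the genotype rests on the labels. Control libraries C1 and C6 were the only 2 of the 8 with more than 1 count of *Xist*. Both are controls, so that *Xist* was unbalanced between the genotypes. Sex was not used as a label here, and fits without these 2 libraries or with *Xist* as a covariate are given below. Summed keratinocyte markers lay between 49477 and 75485 CPM in control libraries and between 89777 and 111999 CPM in those labelled RoraEKO, groups that did not overlap, and *Krt1* and *Krt10* made up most of each sum. None of the 11 keratinocyte markers tested was called in edgeR, where 1 was higher and 1 lower at an unadjusted p under 0.05, and DESeq2 called 2 higher. The part of this shift in the results on the cytokines was not tested. Since whole epidermis was measured, a larger number of cells that express a gene and more RNA of it per cell cannot be told apart.

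A gene was called where the Benjamini-Hochberg adjusted p of the edgeR quasi-likelihood test was under 0.05 and the fold change was at least 1.5. Of the 9 members, 2 were called higher in the libraries labelled RoraEKO, *Il36b* and *Il33*, and 0 were called lower. Over all tested genes 2.3% were called higher and 3.22% lower. Both called members were agonists, 2 of 7, and 0 of the 2 antagonists were called. At an unadjusted edgeR p under 0.05, 7 members differed, all of them higher in the libraries labelled RoraEKO, where 7.92% of all tested genes were higher and 10.3% lower by the same measure. DESeq2 called 6 members higher, against 3.64% of all tested genes called higher and 4.21% called lower. The likelihood ratio test of edgeR called 5 members higher (3.29% of all tested genes higher, 4.38% lower), the fit of all genes with at least 1 count called 5 (1.64% higher, 1.71% lower), and the fit with the title letter as a replicate block called 4 (3.19% higher, 4.4% lower). The log2 fold change was above 0 in 8 members and below 0 in *Il1rn*, with a median of 1.12 against -0.04 over all tested genes. In 3 members, *Il1a*, *Il36b* and *Il36rn*, every library labelled RoraEKO was above every control library, while 5.4% of all tested genes showed this and 7.54% had all their RoraEKO libraries below the controls. The count of 2 called members rested on single libraries. It was 6 without RoraEKO library A3, a fit that called 367 of 13561 tested genes higher and 335 lower. It was 1 without control B1 or C1, without RoraEKO B4, C2 or C3, without C1 and C6 together, or with *Xist* as a covariate. In each of the fits with 1 call, the gene was *Il36b*, and 147 to 248 of the 13147 to 13652 tested genes were called higher and 167 to 359 lower. Without control A1 the calls were *Il1a*, *Il1b* and *Il36b* (383 of 13229 tested genes higher, 513 lower). Without control C6 they were *Il36b* and *Il36rn* (271 of 13276 higher, 304 lower). SE below stands for the standard error of the genotypes' difference in mean log2 CPM.

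**Figure D1:**
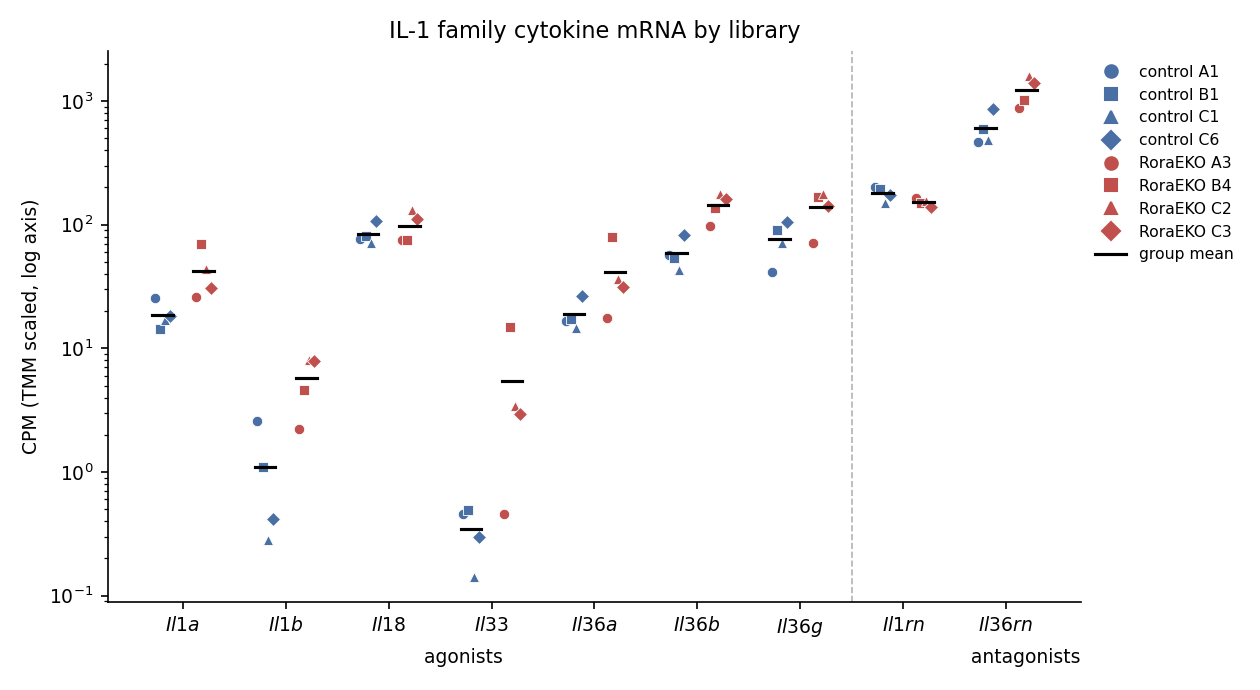
Level of each IL-1 family cytokine mRNA in each of the 8 libraries, in TMM-scaled CPM on a log axis, with agonists to the left and antagonists to the right of the dashed line. Symbols tell the libraries of a group apart and do not pair them across groups, and black bars are group means of 4 libraries. *Il36b* and *Il36rn* separate the groups, *Il1rn* and *Il18* do not, and RoraEKO library A3 lies among the control libraries for *Il33* and *Il36a*.

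*Il36b* (ENSMUSG00000026985), which encodes the agonist IL-36β, gave the smallest p of the members. It was at 56.9, 53.6, 43.3 and 81.9 CPM in the control libraries and at 97.6, 138, 179 and 161 CPM in the libraries labelled RoraEKO. Every library labelled RoraEKO was above the highest control, C6, and A3 was the lowest of the 4. The mean rose from 58.9 ± 16.4 to 143.6 ± 35.0 CPM (SD, n = 4 each), and the log2 fold change was 1.28 (SE 0.269, BH-adjusted p = 0.0110 in edgeR), a factor of 2.44. It was called under all 18 alternatives, with log2 fold changes from 1.16 to 1.51 and adjusted p from 1.4e-05 to 0.0477.

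The other IL-36 agonists had higher means in the libraries labelled RoraEKO and were not called. *Il36a* (IL-36α) was at 16.8, 17.4, 14.7 and 26.7 CPM in the control libraries and at 17.7, 79.0, 36.2 and 31.6 CPM in those labelled RoraEKO. RoraEKO library A3 stood within the control range and B4 was the highest. Its log2 fold change was 1.12 (SE 0.481, BH-adjusted p = 0.161 in edgeR), and 0.60 without RoraEKO library B4. *Il36g* (IL-36γ), an agonist known from inflamed keratinocytes, was at 41.4, 91.4, 71.2 and 105 CPM against 71.6, 167, 177 and 142 CPM. The 3 RoraEKO libraries other than A3 were above all controls, and A3 was between controls C1 and B1. The means were 77.2 ± 27.5 and 139 ± 47.4 CPM (SD, n = 4 each; edgeR log2 fold change 0.85, SE 0.420, BH-adjusted p = 0.201). Of the 18 alternatives, 2 called *Il36a*, DESeq2 and the fit without A3, and 1 called *Il36g*, the fit with the title letter as a replicate block.

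*Il36rn* (ENSMUSG00000026983), the antagonist of the same receptor, was the most abundant member on either scale. It was at 465, 594, 488 and 861 CPM in the control libraries and at 875, 1014, 1600 and 1407 CPM in those labelled RoraEKO. The groups did not overlap, but control C6 came close to RoraEKO library A3, and when counts were scaled by library size alone the groups overlapped. The mean was 602 ± 182 against 1224 ± 337 CPM (SD, n = 4 each), and the log2 fold change was 1.02 (SE 0.286). With an adjusted p of 0.0540 in the edgeR quasi-likelihood test the gene was just outside the cutoff. It was called under 6 of 18 alternatives, DESeq2 (adjusted p = 0.00221), the fit without RoraEKO library A3 (edgeR, adjusted p = 0.0348) and the fit with the title letter as a replicate block among them.

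*Il1a* (ENSMUSG00000027399) encodes IL-1α, which keratinocytes hold ready and release on damage. Its levels were 25.3, 14.4, 17.1 and 18.2 CPM in the control libraries and 26.0, 70.1, 43.4 and 30.6 CPM in those labelled RoraEKO. The groups did not overlap, although A3 exceeded control A1 by less than 1 CPM and the order of these 2 libraries turned when counts were scaled by library size alone. The means were 18.8 ± 4.68 and 42.5 ± 19.8 CPM (SD, n = 4 each; edgeR log2 fold change 1.18, SE 0.359, BH-adjusted p = 0.0557). The gene was called under 6 of 18 alternatives and under 2 of the 8 fits without 1 library.

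*Il1b* (ENSMUSG00000027398) encodes IL-1β, which needs cleavage by caspase-1 to become active. It was at 2.59, 1.09, 0.284 and 0.413 CPM in the control libraries and at 2.22, 4.64, 8.05 and 7.94 CPM in those labelled RoraEKO. Control A1 was above RoraEKO library A3, and the other 3 libraries labelled RoraEKO were above all controls. The mean was 1.09 ± 1.06 against 5.71 ± 2.81 CPM (SD, n = 4 each; edgeR log2 fold change 2.37, SE 0.769, BH-adjusted p = 0.0696), and 5 of 18 alternatives called it. The log2 fold change was 3.29 without control A1, the highest control (edgeR, adjusted p = 0.0106), and 1.66 both without control libraries C1 and C6 and with *Xist* as a covariate (edgeR, adjusted p = 0.208 and 0.148). At these low counts the non-coding genes *Il1bos* and *Gm14023* on the opposite strand, at means of 0.406 and 0.579 CPM in the control libraries, are close to the level of *Il1b* there. Whether strand was used in counting is not given in the sources used here, and neither antisense gene was called (edgeR, adjusted p = 0.816 and 0.926).

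*Il1rn* (ENSMUSG00000026981), the antagonist of IL-1α and IL-1β, had the only log2 fold change below 0 among the members. Its levels were 202, 193, 151 and 172 CPM in control libraries and 165, 148, 156 and 138 CPM in those labelled RoraEKO. The groups overlapped, because control C1 was lower than RoraEKO libraries A3 and C2. The mean was 179 ± 22.9 against 152 ± 11.4 CPM (SD, n = 4 each; edgeR log2 fold change -0.24, SE 0.109, BH-adjusted p = 0.387), and none of the 18 alternatives called it.

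*Il33* (ENSMUSG00000024810) encodes IL-33, an alarmin that is stored in the nucleus. Its expected counts were 12, 9, 3 and 8 in the control libraries and 7, 363, 71 and 59 in those labelled RoraEKO, which made 0.457, 0.492, 0.142 and 0.300 CPM against 0.457, 14.9, 3.42 and 2.95 CPM. RoraEKO library A3 lay at the control level, just below control B1, while the other 3 were above every control and B4 was the highest. The log2 fold change was 3.96 (SE 1.02, BH-adjusted p = 0.0350 in edgeR). Of the 8 fits without 1 library, only that without A3 called the gene (log2 fold change 4.40, adjusted p = 0.00851), and without B4 the log2 fold change was 2.71 (edgeR, adjusted p = 0.0618). Of the 18 alternatives 9 called it, with log2 fold changes from 2.71 to 4.40 and adjusted p between 1.71e-05 and 0.216.

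*Il18* (ENSMUSG00000039217) encodes IL-18, which like IL-1β is cut by caspase-1. It was at 76.5, 81.7, 70.5 and 108 CPM in the control libraries and at 75.1, 75.5, 132 and 110 CPM in those labelled RoraEKO. RoraEKO libraries A3 and B4 were in the lower part of the control range and C2 and C3 were above it. The log2 fold change was 0.22 (SE 0.244, BH-adjusted p = 0.679 in edgeR), and none of the 18 alternatives called the gene. *Il1f10* was at 6.61 ± 4.16 against 3.39 ± 0.395 CPM (SD, n = 4 each; edgeR log2 fold change -0.97, BH-adjusted p = 0.202). Control A1, at 12.7 CPM, was the highest library, and the groups overlapped.

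**Figure D2:**
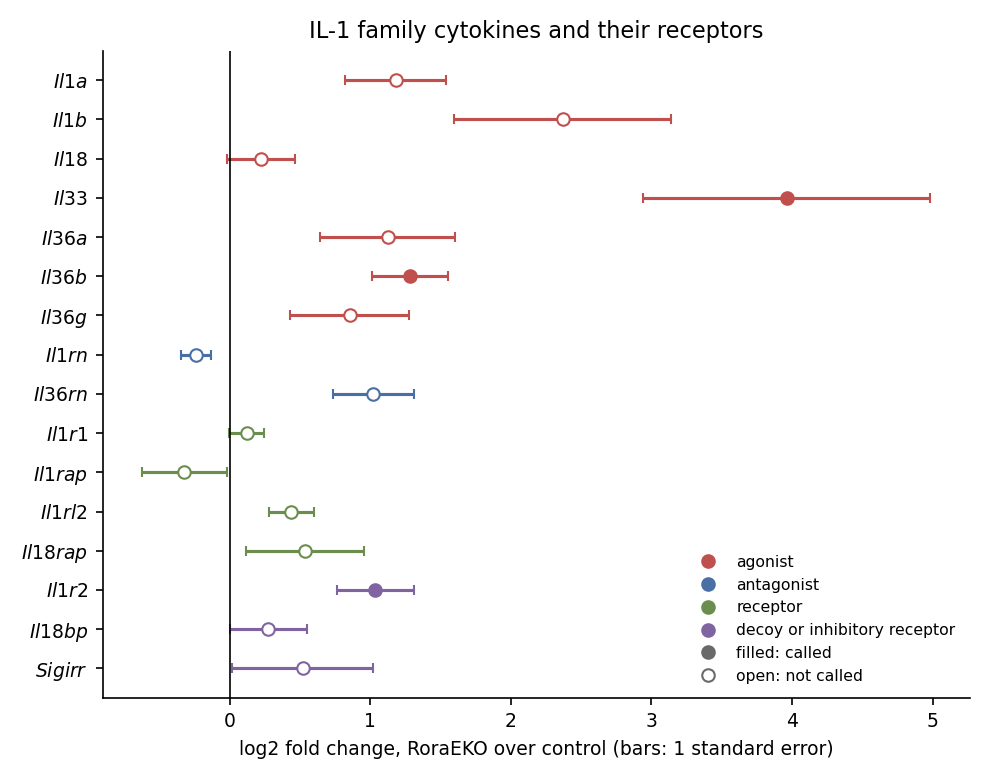
Log2 fold change of each cytokine and of each tested receptor, decoy and inhibitory receptor, RoraEKO over control, with bars of 1 standard error from 4 libraries per group. Filled points were called (adjusted p under 0.05 and fold change at least 1.5). *Il33* has the highest value, 3.96, and the widest bar, and *Il33*, *Il36b* and *Il1r2* are the filled points.

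Agonists and antagonists that share a receptor were compared within each library, as the log2 ratio of agonist to antagonist CPM with 0.5 added to both. The 5 pairs were tested with an exact two-sided permutation test over the libraries, in which the smallest p is 0.0286, and p-values were adjusted over the 5 pairs. The ratio *Il1a*/*Il1rn* was -2.97, -3.70, -3.10 and -3.21 in the control libraries and -2.65, -1.08, -1.83 and -2.16 in those labelled RoraEKO. All 4 values of the second group were above all 4 of the first. The means differed by 1.32 on the log2 scale, a 2.49-fold higher ratio in the libraries labelled RoraEKO (exact permutation p = 0.0286, adjusted p = 0.0714). For *Il1b*/*Il1rn* the mean was -7.03 ± 0.730 against -4.76 ± 0.860 (SD, n = 4 each), a difference of 2.27 without overlap (exact permutation p = 0.0286, adjusted p = 0.0714). The size of this difference moved with the value added, to 2.77 with 0.1 and 1.52 with 2 CPM, and it was 1.72 without control libraries C1 and C6. Both reached the smallest p that this design allows, and neither passed 0.05 after adjustment. As no other of the 5 pairs reached this p, an adjusted p under 0.05 was out of reach, however large the differences. In the 8 comparisons without 1 library the difference ran from 1.03 to 1.56 for *Il1a*/*Il1rn* and from 2.03 to 2.66 for *Il1b*/*Il1rn*, always without overlap. The exact permutation p was 0.0571 without any of the 4 controls for both pairs, and for *Il1b*/*Il1rn* also without RoraEKO library B4, C2 or C3.

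For the 3 IL-36 pairs the mean log2 ratios of the genotypes differed by 0.26 or less over all 8 libraries, and by more when single libraries were left out. The ratio *Il36b*/*Il36rn* was -3.34 ± 0.216 against -3.08 ± 0.136 (SD, n = 4 each; difference 0.26, exact permutation p = 0.114, adjusted p = 0.190), and without control A1 the difference was 0.36 with no overlap (exact permutation p = 0.0286). That of *Il36g*/*Il36rn* was -2.99 ± 0.352 against -3.17 ± 0.419 (SD, n = 4 each; difference -0.18, exact permutation p = 0.543, adjusted p = 0.679), and its difference ran from -0.37 without RoraEKO library B4 to -0.03 without A3. In both pairs the groups overlapped when all libraries were used. For *Il36a*/*Il36rn* the control libraries lay between -5.06 and -4.75, while RoraEKO library B4 was at -3.67 and the other 3 were between -5.59 and -5.45. In this pair B4 was above every control and the other libraries labelled RoraEKO were below every control, with a mean difference of -0.09 (exact permutation p = 1). Without B4 the difference was -0.55 with every library labelled RoraEKO below every control (exact permutation p = 0.0286), and without A3, C2 or C3 it turned to 0.09, 0.05 and 0.05.

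**Figure D3:**
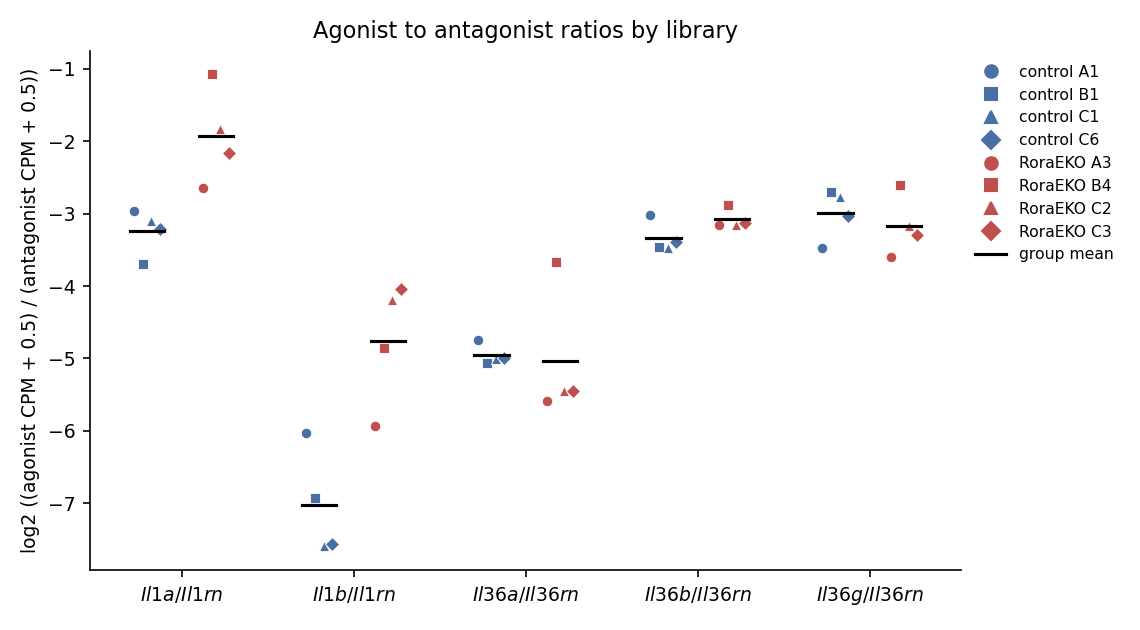
Log2 ratio of agonist to antagonist CPM (0.5 added to each) in each library for the 5 pairs that share a receptor, with black bars for the means of 4 libraries. The *Il1a*/*Il1rn* and *Il1b*/*Il1rn* ratios are higher in every library labelled RoraEKO than in any control, the IL-36 ratios overlap, and library B4 stands apart in *Il36a*/*Il36rn*.

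Levels of different genes were compared as CPM per kilobase of exon sequence. The control order was *Il36rn* (132 CPM per kb), *Il36b* (48.0), *Il36g* (40.5), *Il1rn* (32.4), *Il18* (28.0), *Il36a* (16.9), *Il1a* (5.38), *Il1b* (0.421) and *Il33* (0.0563), all in CPM per kb. Neighbours in this order from *Il36b* down to *Il36a* had overlapping ranges over the 4 libraries, and the others did not. In the libraries labelled RoraEKO the order was *Il36rn* (268 CPM per kb), *Il36b* (117), *Il36g* (73.1), *Il36a* (36.7), *Il18* (32.7), *Il1rn* (27.5), *Il1a* (12.2), *Il1b* (2.20) and *Il33* (0.879), all in CPM per kb. Here the ranges of neighbours overlapped from *Il36b* down to *Il1rn* and between *Il1b* and *Il33*. With the longest transcript as the length, 5 of the 9 members kept their place in the control order, and *Il1rn* came second.

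Summed on this per-length scale, the 3 IL-36 agonists amounted to 81.5%, 82.2%, 80.1% and 77.0% of the *Il36rn* level in the control libraries. In the libraries labelled RoraEKO the sum was 69.3%, 122%, 77.1% and 75.8% of *Il36rn*, with only B4 above the controls. *Il1a* and *Il1b* together were 22.7%, 13.0%, 18.4% and 17.3% of *Il1rn* in control libraries and 27.8%, 81.7%, 55.2% and 47.3% in those labelled RoraEKO. The IL-36 share lay between 69.3% and 82.2% in 7 of the 8 libraries, and the IL-1 agonists were a larger share of their antagonist in every library labelled RoraEKO than in any control. These shares depend on the lengths used and were not tested.

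The libraries labelled RoraEKO differed among themselves. A3 was the lowest of the 4 in 8 of 9 members and the highest in *Il1rn*. B4 was the highest in *Il1a*, *Il33* and *Il36a*, and C2 was the highest in *Il1b*, *Il18*, *Il36b*, *Il36g* and *Il36rn*. After the mean of each genotype was removed from log2 CPM, *Il33* and *Il36a* had a Pearson r of 0.89, *Il1a* and *Il33* of 0.80 and *Il1a* and *Il36a* of 0.78 over the 8 libraries. *Il36b* and *Il36rn* had an r of 0.90, *Il18* and *Il36rn* of 0.95 and *Il18* and *Il36b* of 0.87. Between these 2 sets of 3, which were formed after the values were seen, r ran from -0.11 for *Il1a* and *Il18* to 0.57 for *Il36a* and *Il36b*. *Il36g* belonged to neither, with an r of 0.67 with *Il36a* and 0.76 with *Il36rn*. The points share libraries and scaling, and the values are descriptions. Of the 8 libraries, B4 also held the most *Krt14* and *Krt5*, keratins of basal keratinocytes, at 705.7 and 371.0 CPM. The other libraries labelled RoraEKO ran from 96.2 to 187 and from 63.4 to 78.1 CPM, and the controls reached 203 and 263 CPM. B4 was the highest as well in *Krt1* and *Krt10*, suprabasal keratins of the same marker list, at 52399 and 46176 CPM. The other 7 libraries reached 50735 and 35454 CPM. *Krt15*, another keratin of basal keratinocytes in the same marker list, was lowest in B4, at 55.4 CPM against 76.1 to 126 CPM in the other 7 libraries. These keratins were picked after their values were seen, and their part in the levels of *Il1a*, *Il33* and *Il36a* was not tested. B4 was also the highest of the 8 libraries in 14 of the 48 tested pathway genes described below. RoraEKO C2 was the highest in 12, control C6 in 8 and RoraEKO C3 in 6, and the same was not counted over all tested genes. Of the 14 genes highest in B4, *S100a9*, a calgranulin subunit, was at 60.9 CPM there and at 3.78 to 10.6 CPM in the other libraries labelled RoraEKO. *Nod2* was at 5.71 against 0.718 to 1.35 CPM. Of the genes too low to test, *Defb3*, a beta-defensin, had 45 counts in B4 and 0 in the other 7 libraries, and the cytokine gene *Il17c* had 34 against at most 1. These genes were picked after their values were seen.

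**Figure D4:**
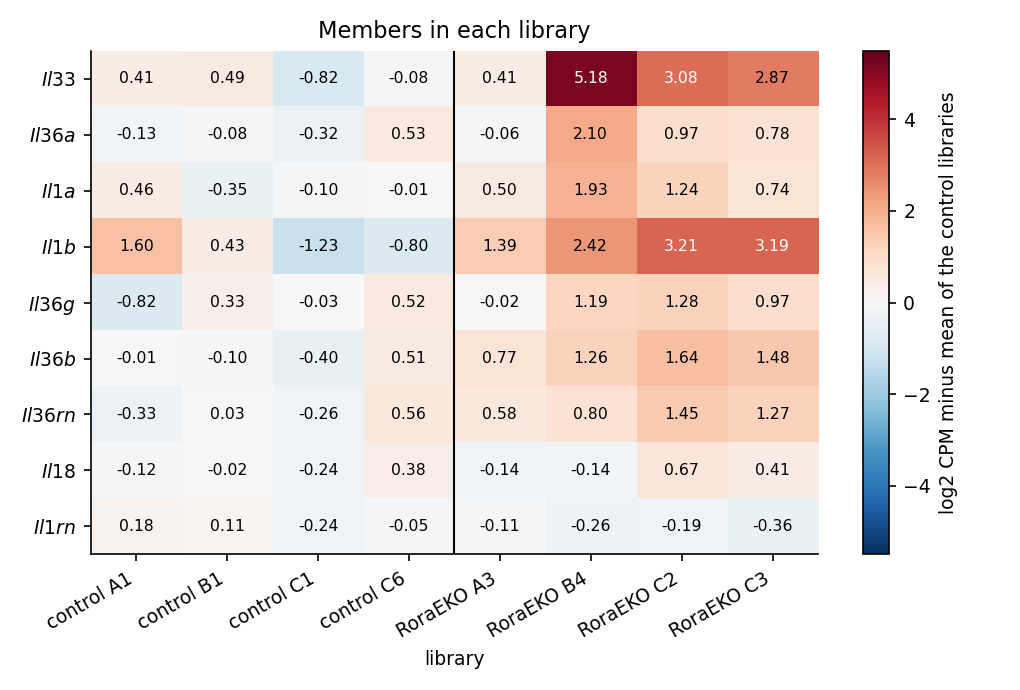
Log2 CPM of each member in each library after subtracting the mean of the 4 control libraries, red above and blue below it. Library B4 has the highest *Il33* (5.18), *Il36a* (2.10) and *Il1a* (1.93), libraries C2 and C3 have the highest *Il36b*, *Il36rn* and *Il1b*, and A3 has the lowest value of the libraries labelled RoraEKO in every row but that of *Il1rn*.

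Markers of other cells of the skin were set beside the members. Langerhans cell markers (10 of 10 tested) summed to 76.2 to 220 CPM in control libraries and 76.9 to 105 CPM in those labelled RoraEKO. Macrophage and monocyte markers (7 of 9 tested) summed to 6.01 to 21.9 against 11.3 to 16.8 CPM, T cell markers (8 of 9) to 21.3 to 50.7 against 19.5 to 74.6 CPM, mast cell markers (1 of 6) to 0.852 to 2.74 against 1.40 to 2.34 CPM, and melanocyte markers (6 of 6) to 50.4 to 142 against 55.7 to 104 CPM. The 8 neutrophil markers were all too low to test, summed to 0.237 to 1.05 against 0.587 to 4.00 CPM, and *Ly6g*, *Retnlg* and *Camp* were at or under the floor in all libraries, as were *Cpa3*, *Mcpt4* and *Fcer1a* of mast cells, *Cd163* of macrophages and *Emcn* of endothelial cells. Dermal fibroblast markers (3 of 6 tested) summed to 1.37 to 6.38 against 2.51 to 10.4 CPM, and endothelial markers (0 of 5) to 0.437 to 0.875 against 0.411 to 2.94 CPM. All of these groups overlapped and no marker of them was called in edgeR, where 2 were higher and 3, all of melanocytes, lower at an unadjusted p under 0.05. DESeq2 called 1 melanocyte marker lower. Within genotype, *Il18*, *Il36b* and *Il36rn* had an r of 0.87, 0.80 and 0.75 with the fibroblast sum, of 0.89, 0.75 and 0.76 with the neutrophil sum and of -0.81, -0.71 and -0.91 with the melanocyte sum. The same r were 0.02, 0.12 and -0.03 for *Il33*, and *Il36g* had one of -0.76 with the melanocyte sum. With the endothelial sum the r of *Il18*, *Il36b* and *Il36rn* were 0.83, 0.59 and 0.64. *Il36g* had an r of 0.70 with the keratinocyte sum and *Il1rn* one of -0.74 with the Langerhans cell sum. RoraEKO library C2, the highest of its group in *Il18*, *Il36b* and *Il36rn*, held 4.00 CPM of neutrophil and 10.4 CPM of fibroblast markers. The other libraries held at most 1.15 and 6.38 CPM, and the weight of C2 in these r was not tested. These r are descriptions over 8 libraries that share scaling, and the part of these cells in the levels of the members was not tested.

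Among the receptors and the shared chain, 4 of 6 genes were tested and 0 were called in edgeR or DESeq2, with 1, *Il1rl2*, at an unadjusted p under 0.05 in edgeR. Of the 18 alternatives, the fit with *Xist* as a covariate called *Il1rl2* higher. *Il1rl2*, the IL-36 receptor, was at 46.7 ± 9.45 against 63.3 ± 5.38 CPM (SD, n = 4 each; edgeR log2 fold change 0.44, BH-adjusted p = 0.148). *Il1r1* was at 8.08 against 8.80 CPM and *Il1rap* at 26.2 against 21.0 CPM, and edgeR gave them adjusted p of 0.768 and 0.598. *Il18rap*, the accessory chain for IL-18, was at 0.442 against 0.641 CPM (edgeR, adjusted p = 0.646). *Il18r1* was at 0.270 against 0.215 CPM and was not tested. *Il1rl1*, the IL-33 receptor, held 3 counts or fewer in every library.

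Of the 3 decoys and inhibitory receptors, *Il1r2* was called higher. *Il1r2* encodes a decoy that binds IL-1 without signalling. It was at 9.17, 16.0, 8.85 and 12.2 CPM in the control libraries and at 18.2, 27.4, 30.3 and 18.6 CPM in those labelled RoraEKO. The groups did not overlap, and the mean rose from 11.6 ± 3.33 to 23.6 ± 6.16 CPM (SD, n = 4 each; edgeR log2 fold change 1.04, SE 0.274, BH-adjusted p = 0.0354). It was called in 10 of 18 alternatives and in 2 of the 8 fits without 1 library, those without RoraEKO A3 or control B1. *Il18bp*, which captures IL-18, was at 1.31 against 1.58 CPM and *Sigirr*, an inhibitory receptor of the family, at 12.0 against 17.2 CPM (edgeR, adjusted p = 0.741 and 0.589).

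Further along the pathway, edgeR called 0 of 7 tested inflammasome and release genes (median log2 fold change 0.43), and 0 of 4 proteases that process these cytokines (0.13), 0 of 16 receptor signalling genes (0.00) and 0 of 9 NF-κB subunits and inhibitors (0.46), the values in parentheses being median log2 fold changes. At an unadjusted p under 0.05 there were 2, 1, 2 and 4 genes in these lists, all higher but for 1 signalling gene, where 7.92% of all tested genes were higher and 10.3% lower by this measure. DESeq2 called 4 of them higher, *Nod2*, a sensor of bacterial cell walls, and *P2rx7*, an ATP-gated channel, among the inflammasome and release genes, *Capn2*, a calpain, among the proteases and *Rel* among the NF-κB subunits. Of the same lists, the fit with the title letter as a replicate block called *P2rx7*, *Capn2*, *Rel* and *Nfkbiz* higher, where 3.19% of all tested genes were called higher and 4.4% lower. Of 22 genes that IL-1 or IL-36 are known to induce in keratinocytes, 5 were tested and *Tslp* was called higher. *Tslp* encodes a cytokine that keratinocytes send to dendritic and T cells. Each control library held at most 3 counts of it, and it was at 1.04, 0.863, 1.45 and 1.70 CPM in those labelled RoraEKO, at least 9.48-fold higher when set against the mean floor of the control libraries (edgeR, adjusted p = 0.00119). All 18 alternatives called it. In the main fit *Tslp* passed the count filter through the libraries labelled RoraEKO alone. Its call is given for this gene and not as support for the list. Over all 79 pathway genes 48 were tested, 2 were called higher, *Il1r2* and *Tslp*, and 0 lower. These were 4.17% and 0% of those tested, against 2.3% and 3.22% of all tested genes. The median log2 fold change of the tested pathway genes was 0.16 against -0.04 over all tested genes. DESeq2 called 7 of the pathway genes higher and 0 lower, against 3.64% and 4.21% of all tested genes.

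The members lie at 4 places of GRCm39. *Il36b*, *Il36g*, *Il36a*, *Il36rn* and *Il1rn* lie in that order, with *Il1f10* before *Il1rn*, between 24043161 and 24241506 on chromosome 2, and *Il1a* and *Il1b* between 129140291 and 129213059 on the same chromosome. *Il18* spans 50466081 to 50493633 on chromosome 9 and *Il33* spans 29902483 to 29938933 on chromosome 19. In the first group *Il36b* was called and *Il1rn*, at the other end of its 198 kb, had a log2 fold change of -0.24, and none of the 6 nearest tested genes around it was called. Near *Il33*, *Ranbp6*, 112 kb away, fell from 8.26 to 3.66 CPM (edgeR log2 fold change -1.17, BH-adjusted p = 0.00739), opposite in direction to *Il33*. This call was lost without control libraries C1 and C6 (edgeR, adjusted p = 0.0956) and held under the other 17 alternatives. *Sirpa*, 221 kb from *Il1b*, rose from 22.8 to 52.4 CPM (edgeR, adjusted p = 0.00225). Several members overlap another gene on the opposite strand: *Il1a* overlaps *Gm14023*, *Il18* overlaps *Bco2* and *Tex12*, *Il33* overlaps *Gm41832* and *Il36g* overlaps *Gm75365*, of which the last 2 were not in the table used here. *Sirpa* encodes the receptor for CD47, and *Ranbp6* a protein of the importin family.

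Promoter windows were taken from RefSeq (GRCm38.p6) for 8 of the 9 members, 12 windows in all since some genes have several start sites, and placed on GRCm39 by an exact match. Each window ran from 250 bases before to 50 bases after a start site, and both strands were searched. The half-sites AGGTCA and GGGTCA, which RORα is known to bind after a stretch rich in A and T, were in 2 and 1 of the 12 windows, and in 16.3% and 13.7% of the 32851 promoters of the table. AGGTCA was in *Il36g* and in 1 window of *Il1rn*, members that were not called, and GGGTCA in *Il36b*. No window of *Il33* held either half-site. The 250 bases before the start site are shown for these members, because they are the called members and those with a half-site. Capitals mark a half-site (TGACCT where it is on the other strand), the AP-1 motif TGANTCA or the TATA box TATAAA. A match is a run of letters, not a binding site.
Il36b, chr2:24042934-24043183, plus strand: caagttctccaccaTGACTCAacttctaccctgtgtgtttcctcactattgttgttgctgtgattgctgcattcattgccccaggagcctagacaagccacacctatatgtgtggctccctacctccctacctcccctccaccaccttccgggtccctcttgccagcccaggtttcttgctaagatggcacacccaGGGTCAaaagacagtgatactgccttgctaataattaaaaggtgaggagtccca
Il36g, chr2:24076238-24076487, plus strand: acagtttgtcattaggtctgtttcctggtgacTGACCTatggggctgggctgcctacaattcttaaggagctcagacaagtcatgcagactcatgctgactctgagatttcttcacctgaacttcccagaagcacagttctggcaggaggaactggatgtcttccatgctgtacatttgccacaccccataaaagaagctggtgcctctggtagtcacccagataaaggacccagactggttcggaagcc
Il1rn, chr2:24226622-24226871, plus strand: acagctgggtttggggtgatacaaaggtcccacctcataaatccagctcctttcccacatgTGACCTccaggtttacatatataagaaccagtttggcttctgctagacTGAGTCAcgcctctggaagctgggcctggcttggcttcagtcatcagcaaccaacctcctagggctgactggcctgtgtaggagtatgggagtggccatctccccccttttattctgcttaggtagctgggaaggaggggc
Il33 upstream start site, chr19:29902263-29902512, plus strand: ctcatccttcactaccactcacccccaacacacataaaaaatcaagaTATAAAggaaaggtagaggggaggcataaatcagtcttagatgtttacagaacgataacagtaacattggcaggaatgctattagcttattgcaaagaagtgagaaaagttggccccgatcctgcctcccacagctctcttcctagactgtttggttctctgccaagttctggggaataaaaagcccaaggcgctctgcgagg
Il33 downstream start site, chr19:29922940-29923189, plus strand: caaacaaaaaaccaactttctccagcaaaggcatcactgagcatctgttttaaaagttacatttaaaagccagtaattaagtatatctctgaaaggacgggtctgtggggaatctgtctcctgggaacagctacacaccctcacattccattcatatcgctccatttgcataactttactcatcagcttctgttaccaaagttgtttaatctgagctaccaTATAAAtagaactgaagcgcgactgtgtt

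GGGTCA began at position -54 from the start site of *Il36b*, and the AGGTCA matches began at -218 in *Il36g* and -189 in *Il1rn*, both on the minus strand. TGANTCA was in 3 windows, of *Il36b* (-236), *Il1rn* (-141) and *Il1a* (-12), and in 7.81% of all promoters. TATAAA was in 6 windows against 13.6% of all promoters, and it began at -32 in *Il1a*, -31 in *Il1b* and -29 at the downstream start site of *Il33*. The NF-κB consensus was in 0 of the 12 windows and in 8.46% of all promoters. The motifs do not overlap each other in these windows. No count by start site was made, so which of the *Il33* or *Il1rn* windows was in use is not known from these data.

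For the 2 called members, the tested genes outside the lists whose deviations within genotype were most like theirs over the 8 libraries were looked up. For *Il33* they were *Wdr33* (r = 0.98), *Epgn* (0.96) and *Rbm4* (0.96), and for *Il36b* they were *Il10rb* (0.98), *Zswim8* (0.98) and *Rufy1* (0.97), the values being Pearson r. Among these 6 genes, *Epgn*, which encodes the EGF receptor ligand epigen, was called higher (edgeR log2 fold change 4.13, BH-adjusted p = 0.00409; 0.0614 in edgeR without control libraries C1 and C6) and the other 5 were not called. These r are the highest among many genes over few libraries and are given as descriptions.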

How the data were processed

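RNA-seq libraries of P4 dorsal epidermis (4 control, 4 labelled RoraEKO) were made with a TruSeq stranded mRNA protocol. The values deposited by the authors are unscaled RSEM expected counts per Ensembl gene, from trimmed paired reads that STAR 2.5.3a placed on GRCm39. The annotation release and the strand setting are not given in the sources used here. Symbols and coordinates came from GENCODE vM39, in which 54749 of 55416 identifiers were found.

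Here the expected counts were rounded, filtered with filterByExpr (13147 genes kept), scaled with TMM and tested without covariates in R 4.3.3 (edgeR 4.0.16, legacy quasi-likelihood form). Adjusted p-values are Benjamini-Hochberg over all tested genes. The SE beside a log2 fold change is from log2 CPM with a prior count of 2. Ratios between members had 0.5 CPM added and were compared with an exact permutation test over 70 arrangements. Floors cover counting error only. The members, the gene lists, the tests and the 18 alternatives per member (RLE and library-size scaling, DESeq2 1.42.0, the non-legacy and likelihood ratio tests, 2 other filters, the title letter as a block, *Xist* as a covariate, and libraries left out) were chosen with earlier results of these data known. Genes named by rule were the members and *Il1f10*, *Rora*, all receptors and decoys, other listed or neighbouring genes that were called, and the 3 genes most like each called member. Also named were *Xist*, cell markers, genes that overlap a member and genes called only under an alternative. The genes and keratins described for library B4 were picked after their values were seen. Promoter motifs were chosen after the expression values were seen. Scripts were checked on simulated counts. Plots were drawn with matplotlib 3.10.9.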

Additional observations from a re-analysis of the deposited data

How the results depend on the processing

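No member turned its direction under any alternative, and none was called lower. Against 2 members called higher, DESeq2 called 6, the likelihood ratio test 5, the fit of all genes with at least 1 count 5, the title letter as a replicate block 4 (*Il33*, *Il36b*, *Il36g* and *Il36rn*, the last 2 not called by the same test without the block, with blocked edgeR adjusted p of 0.00762 and 0.0155), and *Xist* as a covariate or the absence of control libraries C1 and C6 left 1. Fits without 1 library called from 1 to 6 members. Scaling by library size alone left 1 member without overlap instead of 3, and the longest transcript as the length kept the place of 5 of 9 members in the order of levels. Pathway genes called higher numbered 2 and ran from 1 to 7 over the alternatives, with 7 under DESeq2 and the likelihood ratio test, which both added *Nod2*, *P2rx7*, *Capn2*, *Rel* and *S100a9*. With the title letter as a replicate block there were 6, *P2rx7*, *Capn2*, *Rel* and *Nfkbiz* being added. The cause of these differences was not tested. The labels do not say what the title letter stands for, so the block is given as an alternative. The 6 pairs of libraries that share a letter across the genotypes deviated together with r from 0.05 (B1 and B4) to 0.48 (A1 and A3), against a mean of -0.17 for pairs of other letters, and for 7 of the 8 libraries the best correlate in the other genotype had their own letter, a hint from the data and not from the design. The whole count of genes was 302 higher and 423 lower, and moved by over 1.5 times in one direction or both to 478 and 553 with DESeq2, 189 and 311 with *Xist* as a covariate, 147 and 167 without C1 and C6, 174 and 283 without control B1, 188 and 287 without RoraEKO C3. The 5 ratio differences kept their direction under other pseudocounts, library-size scaling and without C1 and C6, but *Il1b*/*Il1rn* moved from 2.27 to 2.77 with 0.1 CPM added and 1.52 with 2 CPM. Without 1 library they ran from 1.03 to 1.56 for *Il1a*/*Il1rn*, 2.03 to 2.66 for *Il1b*/*Il1rn*, -0.55 to 0.093 for *Il36a*/*Il36rn*, 0.19 to 0.36 for *Il36b*/*Il36rn* and -0.37 to -0.03 for *Il36g*/*Il36rn*. In these comparisons the sign of *Il36a*/*Il36rn* turned without A3, C2 or C3, and in 4 of the 5 pairs, *Il36g*/*Il36rn* being the exception, the unadjusted exact permutation p crossed 0.05. After adjustment over the 5 pairs no setting passed 0.05, the lowest adjusted p of the exact permutation test being 0.0714. Where at most 2 of the 5 pairs reach the smallest p, an adjusted p under 0.05 is out of reach. The adjusted p therefore does not measure the size of the IL-1 differences. At 3 counts in control C1, *Il33* is near the depth limit, and its fold change is the least certain of the members.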
